A study of Mus musculus with 3 samples.

Results

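Genes that store, move and release iron were followed across the myeloid cells of the mouse hippocampus. The group consists of 7 genes, found by their symbols among the 31053 genes listed for each run: the ferritin chains Fth1 and Ftl1, the exporter Slc40a1, the uptake receptor Tfrc, the haem-degrading enzyme Hmox1, and the metal transporters Slc11a1 and Slc11a2. All 7 were present in the files of the 3 runs. Fth1 and Ftl1 were higher in border macrophages and in microglia carrying lipid and phagocyte genes than in microglia with homeostatic markers, Hmox1 was higher in the same populations, and Slc40a1 was lower in the lipid-type microglia.

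The libraries were made from viable tdTomato+ cells of PBS-perfused bilateral hippocampi, after removal of myelin on magnetic columns and flow cytometry, with 10x Genomics droplet reagents. Every animal was labelled Cx3cr1CreERT2/+, Rosa26tdTomato/+ and NestinTK-eGFP/+ and had received tamoxifen at 100 mg/kg on 4 days, so the reporter marks cells in which Cx3cr1-driven Cre had been active, and no untreated or other genotype served as control. The 12 animals (6 male and 6 female) are not assigned to the 3 runs and no age is given, so the replicate is the run. The p-values rest on spread between runs and not between animals. This spread was estimated over all cell groups fitted together, with information shared between genes. It is therefore not the run spread of a single group. A UMI, or unique molecular identifier, stands for a counted RNA molecule. Cells entered with 1000 UMIs or more, 500 genes or more and no more than 10% of UMIs from mitochondrial genes, which left 6993 cells of run 1, 6720 of run 2 and 6078 of run 3, whose median depths were 4425, 3438 and 3696 UMIs. Pairs of runs shared between 7 and 10 barcodes.

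Iron enters most cells bound to transferrin through the transferrin receptor, leaves the endosome through SLC11A2, and is either used or stored in the ferritin shell, which is built of heavy chains (Fth1), which oxidise iron, and light chains (Ftl1), which help to lay down the mineral core. Macrophages gain further iron by digesting haem with haem oxygenase 1 (Hmox1) and move it out of the phagosome with SLC11A1. Ferroportin, the product of Slc40a1, is the known exporter of iron from vertebrate cells. Microglia are the main resident macrophages of the brain and hold much of their iron in ferritin. Several of these transcripts carry an iron-responsive element, a hairpin that iron regulatory proteins bind when iron is scarce: in the 5′ UTR it blocks translation, and in the 3′ UTR of Tfrc it protects the RNA from decay. UMI counts measure RNA and not translation, so regulation through the 5′ UTR is outside what was measured.

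The hairpin letters are shown because they group the members by the way their transcripts are known to be controlled. The UTRs of all coding transcripts in GENCODE M21 (build GRCm38) were searched on the transcript strand for CNNNNNCAGTGN, a bulged C, 5 stem bases and a loop that starts with CAGTG, and the 5 bases on either side of the loop were checked for pairing, with G opposite T counted as a pair. Capitals mark the bulged C and the 6 loop bases.
Fth1 5′ UTR: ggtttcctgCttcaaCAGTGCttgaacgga
Ftl1 5′ UTR: tgtgtcttgCttcaaCAGTGTttgaacgga
Slc40a1 5′ UTR: ttccaacttCagctaCAGTGTtagctaagt
Tfrc 3′ UTR a: gataattatCggaagCAGTGCcttccataa
Tfrc 3′ UTR b: tcacattatCgggagCAGTGTcttccataa
Tfrc 3′ UTR c: tgtctatatCggagaCAGTGAtctccatat
Tfrc 3′ UTR d: cgtaattatCgggaaCAGTGTttcccataa
Slc11a2 3′ UTR: gggagccatCagagcCAGTGTgtttctatg
The matches of Fth1 (chr19:9982738-9982749, plus strand), Ftl1 (chr7:45459790-45459801, minus strand) and Slc40a1 (chr1:45925476-45925487, minus strand) each paired at 5 of 5 stem positions. The 4 matches of Tfrc shown, a at chr16:32631225-32631236 and d at chr16:32631716-32631727 on the plus strand, also paired at 5 of 5, and that of Slc11a2 (chr15:100395164-100395175, minus strand) at 4 of 5. No other match in a member paired at 4 or more positions, and Hmox1 had no match. Among all coding genes, 0.990% of 20916 had such a paired match in a 5′ UTR and 4.15% of 21045 in a 3′ UTR, and the letters alone were found in 12.2% and 35.9%. A match describes these letters and is not evidence that the element is used in these cells.

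In the same annotation the genes lie at chr19:9980598-9985098 (Fth1), chr7:45457944-45459884 (Ftl1), chr1:45908068-45926523 (Slc40a1), chr16:32608920-32632794 (Tfrc), chr8:75093621-75100589 (Hmox1), chr1:74375195-74386062 (Slc11a1) and chr15:100387898-100425072 (Slc11a2). Ferritin has near-identical copies in the mouse genome. The listed pseudogene Ftl1-ps1 had 300, 208 and 192 UMIs in the kept cells of runs 1, 2 and 3, and its level in the reference gate defined below, 7.85 ± 0.46 CPM (SD, n = 3), lay far under that of Ftl1. CPM are the UMIs of a gene in a sum of cells, scaled to the same total for every sum. Reads of Ftl1 that were assigned to other copies are not counted here.

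Cells were sorted into gates by the number of markers with at least 1 UMI, and cells that met more than 1 gate other than the reference gate were set aside. Cells of the other gates may also carry the homeostatic markers, and the reference gate holds only cells that met no other gate. The reference gate (at least 4 of 6 homeostatic microglial genes, among them P2ry12, Tmem119, Cx3cr1, Siglech and Fcrls) held 6339, 6286 and 5245 cells. The border gate (at least 3 of Mrc1, Pf4, F13a1, Lyve1, Cbr2 and Cd163, genes of macrophages at the brain's borders) held 34, 18 and 25. The lipid gate (at least 3 of Spp1, Lpl, Csf1, Itgax, Gpnmb, Lgals3, Fabp5 and Apoc1, genes of the disease-associated microglial state) held 36, 41 and 17. The Ccl3/Ccl4 gate (at least 3 UMIs of each chemokine gene and at most 1 lipid marker) held 13, 12 and 21, the interferon gate (at least 4 of 8 interferon-stimulated genes) 53, 24 and 33, and the Emp3 gate (at least 2 of Emp3, Fxyd5 and Tnfsf13b) 259, 192 and 185. Of the gates just named, all markers were at their highest in their own gate for the border, interferon and Ccl3/Ccl4 gates, 7 of 8 for the lipid gate, 2 of 3 for the Emp3 gate and 2 of 6 for the reference gate. Libraries and gates also differed in other respects. Border cells of run 1 included 9 of 34 with both Xist and Y-linked UMIs, a sign of 2 cells in a droplet, against 0 of 18 and 2 of 25 in runs 2 and 3 and at most 2.79% of reference cells. The summed homeostatic markers in the border gate ranged from 5940 to 15431 CPM over the runs, highest in run 1, against 24230 to 31064 in the reference gate. Run 3 stood apart by its immediate early genes, whose 8 markers summed to 2022 CPM in its reference cells against 314 in run 1.

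Fth1, the ferritin heavy chain, was lowest in the reference gate and highest in the border gate by its mean among the 6 gates described above. In reference cells its level was 2282, 2416 and 2138 CPM in runs 1, 2 and 3 (2279 ± 139, SD, n = 3). In the border gate it was 4681, 8163 and 6859, and in the lipid gate 4338, 4648 and 5904. Every border and lipid value lay above every reference value, and run 1 was the lowest of the border values. The Emp3 gate followed with 3221, 3445 and 3140, then the Ccl3/Ccl4 gate with 3181, 3156 and 2470 and the interferon gate with 2654, 3217 and 2734, and these gates overlapped one another. The border and lipid gates overlapped as well.

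Ftl1, the light chain, ran from 1671, 1950 and 1451 CPM in the reference gate (1691 ± 250, SD, n = 3) to 4859, 5463 and 5763 in the lipid gate and 3510, 8489 and 5857 in the border gate. Neither gate overlapped the reference gate, and the border values spread more widely than the lipid values. In the Ccl3/Ccl4 gate the level was 2846, 3481 and 2160, above all reference values and below all lipid values. Ftl1 in the Emp3 gate (1987, 2459 and 1938) overlapped the reference gate by a narrow margin, since its lowest run lay under the highest reference run. The interferon gate, at 1515, 2118 and 1516, lay within the reference range but for run 2. The plot of levels by gate shows these orders.

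**Figure D1:**
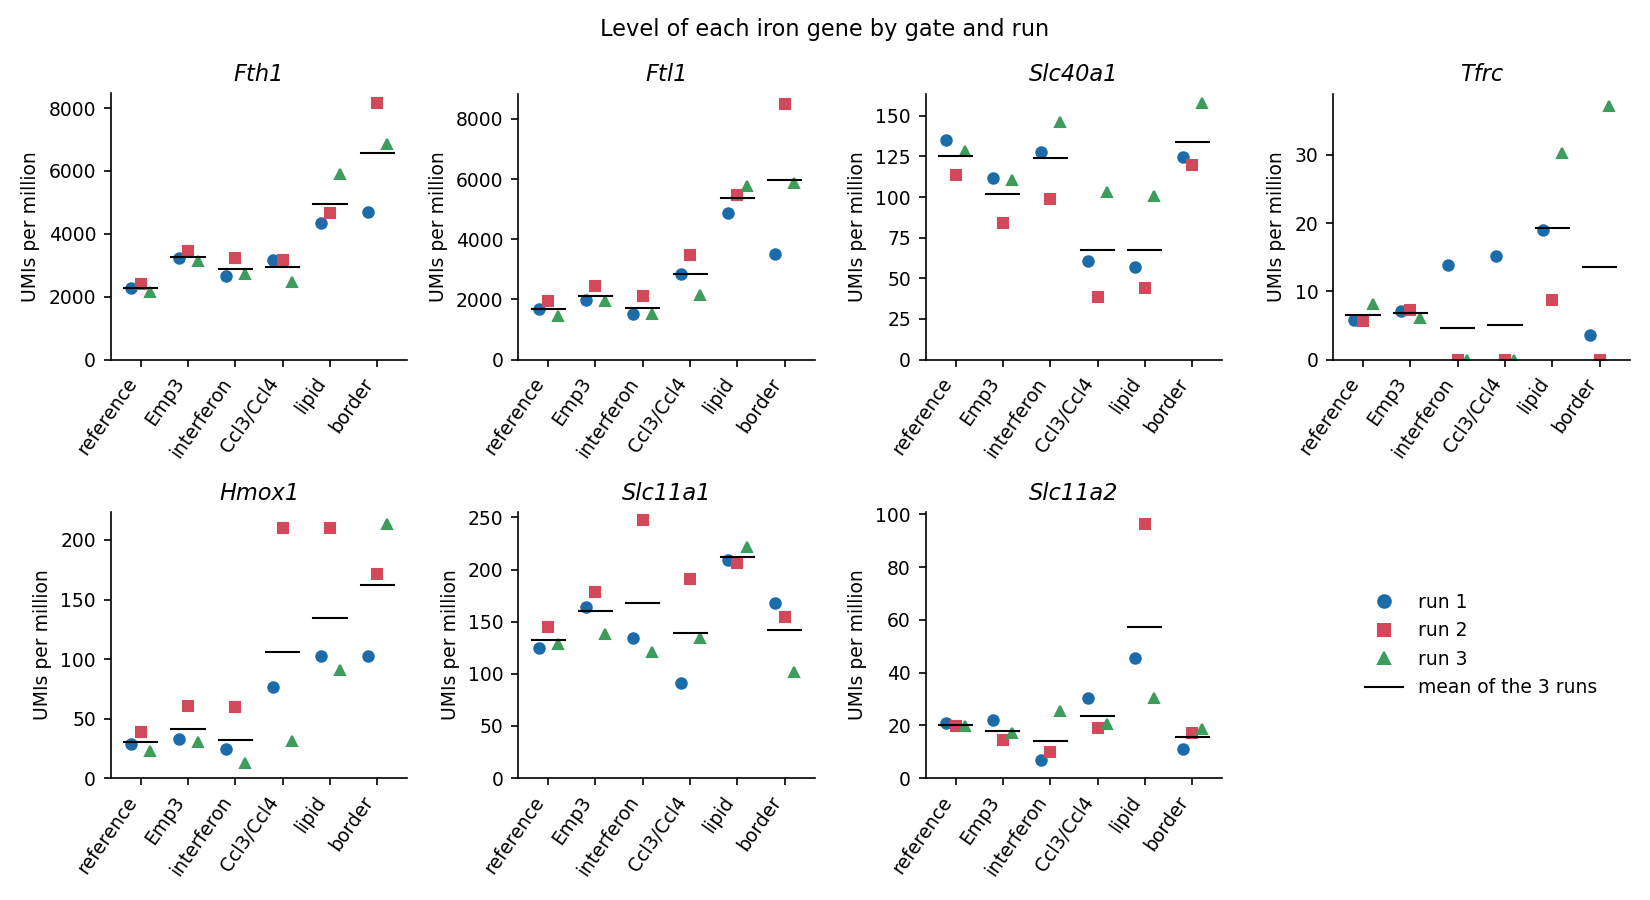
Level of each of the 7 iron genes (y axis, CPM, within the summed UMIs of the gate in that run) in 6 gates (x axis); points are the 3 runs and lines their means. Fth1 and Ftl1 are highest in the lipid and border gates, Slc40a1 lowest in the Ccl3/Ccl4 and lipid gates, and Tfrc and Slc11a2 rest on few UMIs.

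For the border gate against the reference gate, 3 of the 5 members that passed the filter on low counts were higher and 0 lower, where 16.3% of all 5202 genes tested were called, 10.3% higher and 6% lower (edgeR quasi-likelihood test, Benjamini-Hochberg adjustment over all genes, run as block, adjusted p under 0.05). The log2 rise of Fth1 was 1.65 ± 0.14 (SE, adjusted p 1.77e-14, higher in 3 of 3 runs) and that of Ftl1 1.91 ± 0.15 (adjusted p 7.62e-16, 3 of 3 runs). By run, the log2 ratios of CPM + 1 were 1.04, 1.76 and 1.68 for Fth1 and 1.07, 2.12 and 2.01 for Ftl1. The SE comes from spread pooled over all gates of the fit, and not from these ratios alone. The median change of the 5 members was 1.65, against -0.02 for all genes tested. Tfrc and Slc11a2 did not pass the filter. Without run 1, the run with most Xist and Y double-positive border cells, the changes were 1.89 for Fth1 and 2.24 for Ftl1, without run 3 they were 1.5 and 1.72, and with all double-positive cells left out they were 1.77 and 2.04. After each cell had been thinned to 2000 UMIs and gated anew, they were 1.79 and 1.93. The thinned border gate held 48, 14 and 27 cells, which is not the same set of cells.

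In the lipid gate 4 of the 5 tested members were higher and 1 lower than in the reference gate, where 23.5% of the 5202 genes were called, 13.4% higher and 10.1% lower. Fth1 rose by 1.20 ± 0.14 (log2, SE, edgeR adjusted p 7.23e-10) and Ftl1 by 1.76 ± 0.15 (adjusted p 2.51e-14), each in 3 of 3 runs. The median member change was 1.20, against 0.01 for all genes tested. Without run 3 the rises were 1.01 and 1.59, and over the 3 fits that left out a run they reached 1.29 and 1.85. Lipid cells were deeper than reference cells, their median UMI counts being 6976.5, 5342 and 5611 over the runs, against 4377, 3412 and 3643. Too few cells met the lipid gate after thinning. Within the reference gate, cells above their run's median UMI count had 2317, 2495 and 2194 CPM of Fth1 and those at or below it 2226, 2287 and 2050, with 1715, 2041 and 1500 against 1600, 1799 and 1374 for Ftl1. Deeper reference cells were higher in each run. Their median UMI counts were 5203.5, 4093 and 4301, below those of the lipid cells. The part of depth in the gate result was not tested. Lipid cells also carried Ccl3 and Ccl4, which summed to between 582 and 2079 CPM against 14 to 63 in the reference gate. The part of those transcripts in the result was not tested within the gate.

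The contrast of the lipid gate with the Ccl3/Ccl4 gate compared 2 sets of microglia that differ both in the lipid markers and in the chemokines, since Ccl3 and Ccl4 summed to 9568 to 11279 CPM in the Ccl3/Ccl4 gate and 582 to 2079 in the lipid gate. Both ferritin chains were higher in the lipid gate, and these were 2 of the 5 tested members, where 1.25% of genes were called, 0.519% higher and 0.73% lower. Fth1 differed by 0.78 ± 0.15 (log2, SE, edgeR adjusted p 0.00136) and Ftl1 by 0.98 ± 0.16 (adjusted p 9.02e-05), each higher in 3 of 3 runs. For Slc40a1, Hmox1 and Slc11a1 the difference was -0.28 ± 0.45, 0.56 ± 0.41 and 0.63 ± 0.31, with adjusted p of 0.890, 0.656 and 0.424. Without run 2 or without run 3 a single member was still called, and without the run as block 0 were.

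Against the reference gate, the Ccl3/Ccl4 gate had 2 of 5 members higher, where 3.9% of genes were called, 2.88% higher and 1.02% lower. Ftl1 rose by 0.79 ± 0.16 (log2, SE, edgeR adjusted p 7.56e-04), while Fth1, at 0.42 ± 0.15, missed the threshold (adjusted p 0.116). Hmox1 was the other member called. Without run 2 neither was. In the Emp3 gate 2 of 5 members were higher, where 2.19% of genes were called, 1.83% higher and 0.365% lower: Fth1 by 0.57 ± 0.13 (adjusted p 0.00893) and Slc11a1 by 0.33 ± 0.09 (adjusted p 0.0192). Without run 2 there were 0 members called in the Emp3 gate, and without run 1 or run 3 there was 1. In the interferon gate 0 of 5 members were called by edgeR, where 2.61% of genes were (2.56% higher and 0.0577% lower), 1 had an unadjusted p under 0.05, and DESeq2 also called 0. Fth1 there was 0.34 ± 0.14 (adjusted p 0.381).

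**Figure D2:**
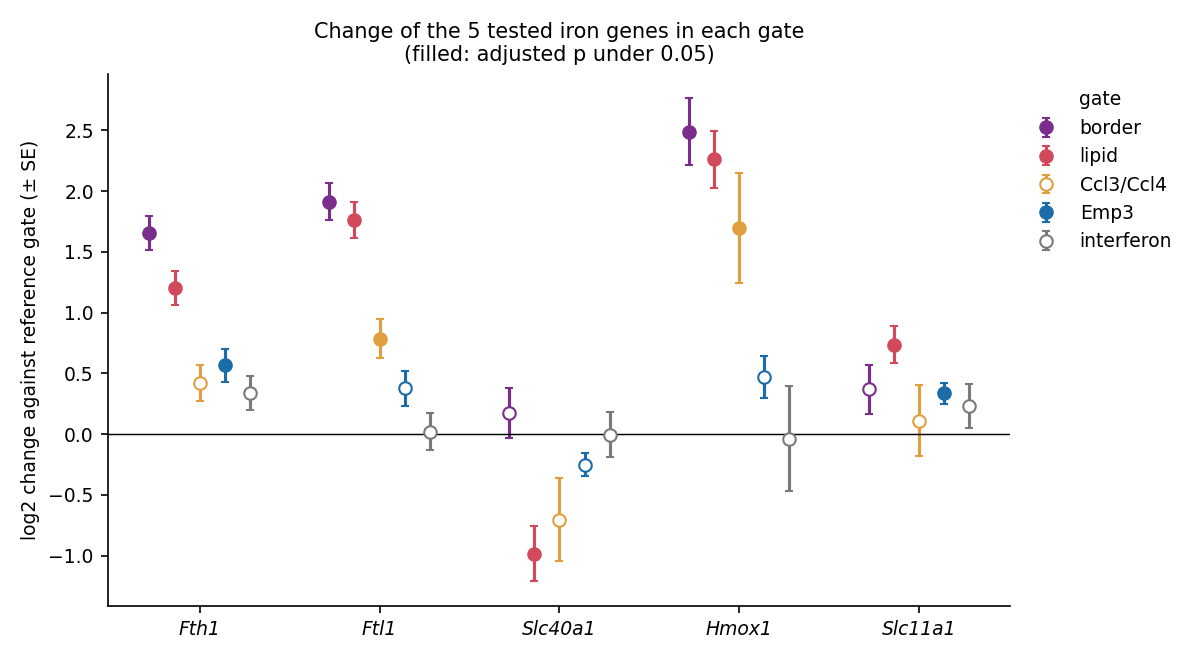
Change of the 5 tested members (x axis) in each gate against the reference gate (y axis, log2 change; bars are standard errors from the fit over 3 runs); filled points have an edgeR adjusted p under 0.05. Fth1, Ftl1 and Hmox1 are filled and above 0 in the border and lipid gates, and Slc40a1 is filled only in the lipid gate, where it lies at -0.98.

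Single cells spread widely around these sums. In reference cells of run 1 the 10th percentile, the median and the 90th percentile of Fth1 were 9.77, 20.9 and 37.8 UMIs per 10000 UMIs of the cell, and in lipid cells of the same run 25.0, 36.3 and 85.7. Ftl1 in lipid cells of run 2 reached 29.3, 56.9 and 94.8, against 7.22, 17.5 and 31.9 in reference cells. In both examples the 10th percentile of the lipid cells lay above the reference median, whereas for Fth1 in run 2 it lay below (20.5 against 21.7). Cells of a run are not replicates, and these spreads include counting error.

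The ferritin levels also followed the number of lipid markers among the cells of the reference and lipid gates. Cells with 0 lipid markers had 2220, 2359 and 2094 CPM of Fth1 in runs 1, 2 and 3, cells with 1 marker 2559, 2610 and 2345, and cells with 2 markers, which are still reference cells, 3385, 4260 and 3237. For Ftl1 the same steps were 1602, 1869 and 1395, then 1926, 2285 and 1719, then 3268, 4064 and 2801. Each step was upward in all 3 runs for both chains. Cells with 2 markers numbered 79, 74 and 51. Cells were also thinned to 2000 UMIs before the markers were counted. Then 0, 1 and 2 markers gave Fth1 levels of 2266, 2916 and 3182 in run 1, 2363, 2865 and 4151 in run 2, and 2135, 2485 and 4614 in run 3. Thinned cells were gated anew, so these bins can hold cells that met the lipid gate before thinning. The thinned bins of 2 markers held 33, 53 and 22 cells. Without thinning, the bins at 3 or more markers held between 5 and 32 cells, and Fth1 no longer went up at each step in runs 1 and 2.

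**Figure D3:**
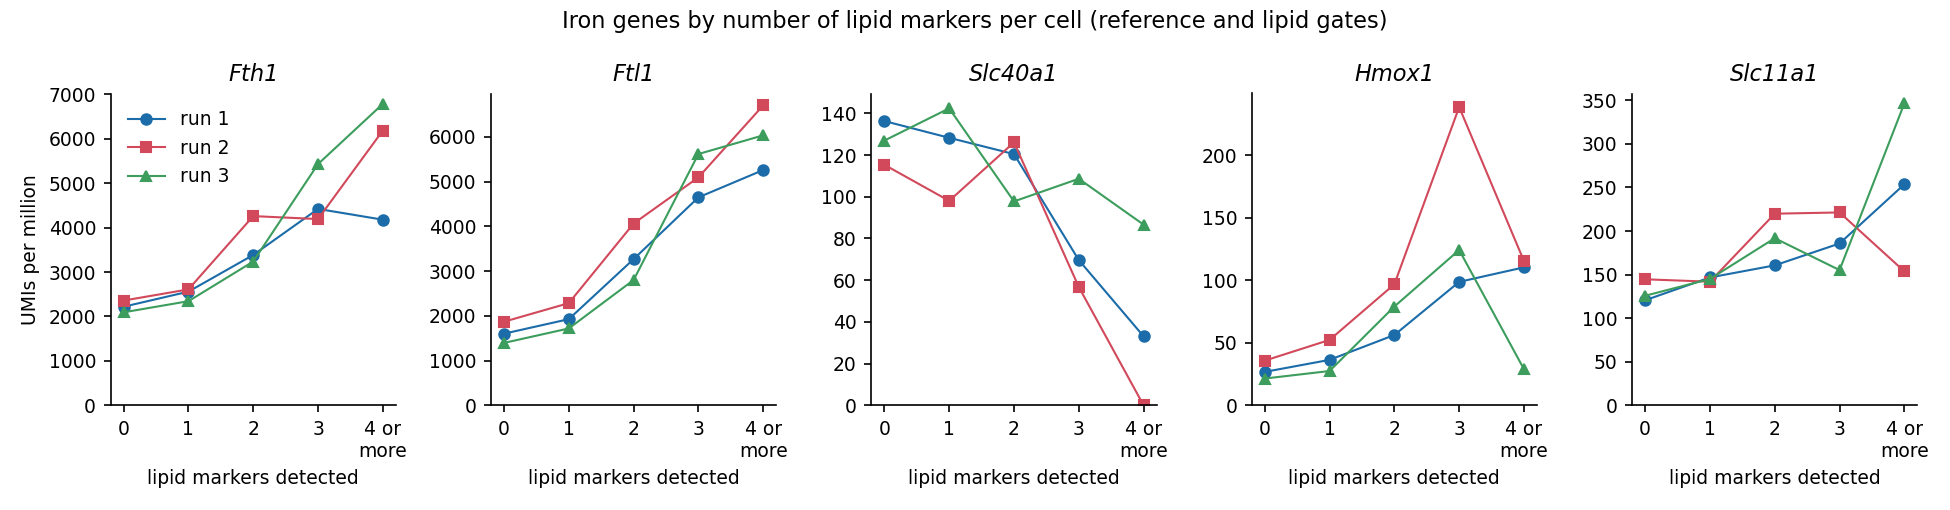
Levels of the 5 tested members (y axis, CPM, unthinned) by the number of lipid markers detected in a cell (x axis) in the cells of the reference and lipid gates; lines are the 3 runs. Fth1 and Ftl1 go up from 0 to 2 markers in each run, and the bins of 3 and of 4 or more markers hold 5 to 32 cells each.

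The light chain gained on the heavy chain in the lipid gate. Ftl1 UMIs per Fth1 UMI, a ratio read only across gates since the genes differ in sequence, were 1.12, 1.18 and 0.976 in runs 1, 2 and 3 of the lipid gate (1.09 ± 0.10, SD, n = 3) and 0.732, 0.807 and 0.679 in the reference gate (0.739 ± 0.064). The lowest lipid value lay above the highest reference value. The Ccl3/Ccl4 gate (0.895, 1.10 and 0.874) also lay above the reference gate, whereas the border gate (0.750, 1.04 and 0.854) overlapped it. Each border value still lay above the reference value of its own run. The ratio was lower in the interferon gate, at 0.571, 0.658 and 0.555, with all 3 values under the lowest reference value. In the Emp3 gate it was 0.617, 0.714 and 0.617, each under the reference value of its own run. With 3 runs an exact test on this ratio cannot reach 0.05, so the order is given as a description.

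**Figure D4:**
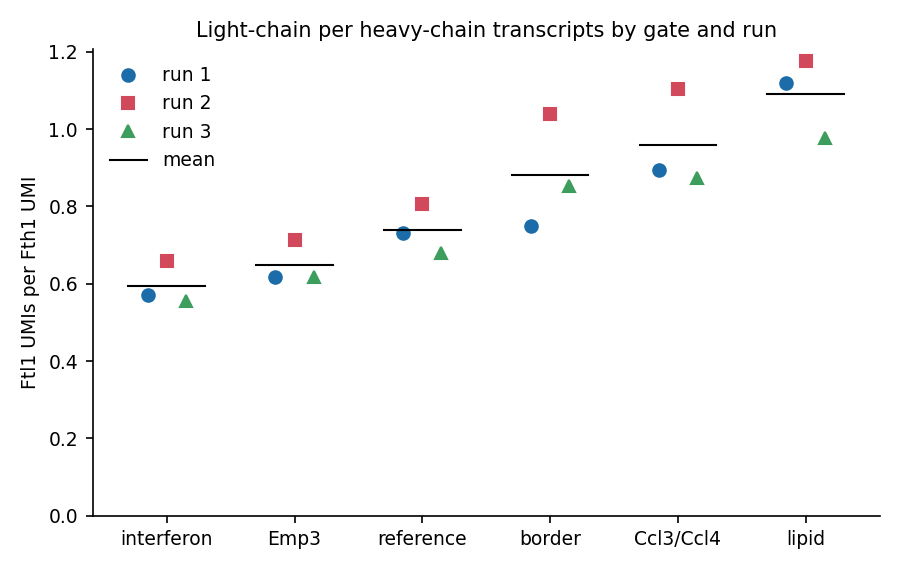
Ftl1 UMIs per Fth1 UMI (y axis) in 6 gates (x axis); points are the 3 runs and lines their means. The interferon gate lies lowest and the lipid gate highest, with lipid values from 0.976 to 1.18.

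Slc40a1, the exporter ferroportin, moved opposite to ferritin in the lipid gate. Reference cells had 135, 114 and 128 CPM (126 ± 11, SD, n = 3), from 3970, 2561 and 2582 UMIs. Lipid cells had 57.0, 43.8 and 101, from 15, 10 and 10 UMIs. All 3 lipid values lay under the lowest reference value, and run 3 was the closest. The fall of 0.98 ± 0.23 on the log2 scale passed the test (edgeR adjusted p 7.90e-04, lower in 3 of 3 runs), and its largest adjusted p over 11 alternatives was 0.0471, without run 2. In the Ccl3/Ccl4 gate the level was 60.9, 38.2 and 103, resting on 4, 2 and 10 UMIs, and its change of -0.70 ± 0.34 did not pass (adjusted p 0.317). The border gate, with 124, 120 and 158 CPM and a change of 0.17 ± 0.21 (adjusted p 0.662), kept to the reference range in 2 of 3 runs. The Emp3 gate (112, 84.0 and 110) lay just under the reference gate, with a change of -0.25 ± 0.09 (adjusted p 0.185).

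Hmox1, whose product opens the haem ring and frees its iron, had the largest change of the 5 tested members in the border and lipid gates. Its reference level was 28.4, 38.6 and 22.9 CPM, that of the border gate 103, 172 and 214 (28, 10 and 23 UMIs), and that of the lipid gate 103, 210 and 90.8 (27, 48 and 9 UMIs). Neither gate overlapped the reference gate. Hmox1 rose by 2.49 ± 0.28 in the border gate (log2, SE, edgeR adjusted p 1.48e-10) and by 2.26 ± 0.24 in the lipid gate (adjusted p 2.94e-11), in 3 of 3 runs each. In the Ccl3/Ccl4 gate it was 76.1, 210 and 31.0 (5, 11 and 3 UMIs), a wide spread that overlapped the reference gate, with a rise of 1.69 ± 0.45 (adjusted p 0.0179) that was not called without run 1 (adjusted p 0.0531) or without run 2 (0.614). The level of Hmox1 in the Emp3 gate, 32.5, 60.8 and 30.7, was not called apart from the reference gate (0.47 ± 0.17, adjusted p 0.170).

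Slc11a1, the phagosomal metal transporter of macrophages, was higher in the lipid gate, at 209, 206 and 222 CPM, than in the reference gate, at 125, 145 and 129. These gates did not overlap, and the rise was 0.74 ± 0.16 (log2, SE, edgeR adjusted p 2.33e-04, 3 of 3 runs). It was not called in the border gate, where the levels were 168, 154 and 102 and the change 0.37 ± 0.20 (adjusted p 0.251). Slc11a2, the endosomal transporter, stood at 20.7, 19.8 and 19.7 CPM in the reference gate and at 45.6, 96.4 and 30.3 in the lipid gate, from 12, 22 and 3 UMIs. It failed the filter on low counts. With the filter removed it rose by 1.62 ± 0.31 (adjusted p 7.84e-06), in a fit where 6.3% of 18310 genes were called and the median change of the genes tested in both fits lay lower by 0.10. In the border gate it had 3, 1 and 2 UMIs.

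Tfrc, the transferrin receptor, was close to the limit of detection. It had 5.75, 5.67 and 8.15 CPM in the reference gate, from 169, 128 and 164 UMIs over all cells of the gate, and 19.0, 8.76 and 30.3 in the lipid gate, from 5, 2 and 3 UMIs. The lipid values were above the reference values, but with the filter removed the change of 1.45 ± 0.58 was not called (edgeR adjusted p 0.137). Tfrc had 1, 0 and 4 UMIs in the border gate, where 0 UMIs in run 2 allow up to 51.4 CPM (3 counts, counting error only), and 0 in runs 2 and 3 of both the Ccl3/Ccl4 and the interferon gate. Counts this low give any difference of this gene between gates little precision.

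Mitochondrial transcripts moved with these gates. The median share of mitochondrial UMIs was 3.85%, 4.01% and 3.56% in the border gate and 3.83%, 3.1% and 4.47% in the lipid gate, against 2.57%, 2.08% and 2.56% in the reference gate. Reference cells above their run's median share had 2461, 2572 and 2293 CPM of Fth1 and those at or below it 2097, 2258 and 1978. This gap had the same direction in each run. For Ftl1 the values were 1765, 2074 and 1561 above and 1573, 1824 and 1338 at or below. Slc40a1 was 126, 111 and 124 above and 145, 116 and 133 at or below. The part of the mitochondrial share in the gate results was not tested at equal share, since too few border and lipid cells had at most 4% mitochondrial UMIs.

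MHC class II-high cells outside the border gate (at least 3 of H2-Aa, H2-Ab1, H2-Eb1 and Cd74, antigen-presenting genes) and cycling cells (at least 3 of Mki67, Top2a, Birc5, Cdk1, Ube2c and Cenpf) had under 10 cells in run 2. They were tested only after cells that also met the Emp3 gate had been kept in them, a choice made after seeing the data, which gave 26, 23 and 28 MHC class II-high and 31, 10 and 13 cycling cells. In the MHC class II gate Fth1 was 3940, 5707 and 5301 CPM and Ftl1 2944, 5049 and 3029, all above the reference values. There 3 of 5 members were higher, where 16.1% of 4598 genes were called, 10.8% higher and 5.28% lower: Fth1 by 1.36 ± 0.18 (log2, SE, edgeR adjusted p 2.38e-08), Ftl1 by 1.32 ± 0.19 (adjusted p 2.29e-07) and Hmox1 by 1.57 ± 0.36 (adjusted p 9.15e-04). Slc40a1 stood at 87.9, 45.1 and 56.9 and its change of -0.76 ± 0.28 did not pass (adjusted p 0.0580). It was called lower in 3 of 12 alternatives. Before Emp3-positive cells were kept, the 19, 9 and 10 cells of this gate had 98.0, 97.4 and 119 CPM of Slc40a1 and 78.4, 48.7 and 17.0 of Hmox1, on 1 to 10 UMIs a run. The mean of Slc40a1 thus went from 105 to 63.3 CPM and that of Hmox1 from 48.0 to 77.5 with the cells kept. The mean of Fth1 likewise went from 3395 to 4982 CPM and that of Ftl1 from 2687 to 3674. Before the cells were kept, Fth1 was 3067, 3895 and 3223 CPM and Ftl1 2332, 3457 and 2273, above every reference value. Ftl1 was higher in the border than in the MHC class II gate by 0.62 ± 0.19 (edgeR adjusted p 0.0430), the 1 member of 5 called where 5.48% of genes were (2.7% higher and 2.78% lower). This call was lost in 8 of 13 alternatives, among them those without run 2 and without run 3.

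Cycling cells showed no ferritin change that passed the test. Fth1 was 3250, 2726 and 2630 CPM and Ftl1 1836, 1623 and 1088. Slc11a1 was lower, at 87.0, 30.6 and 47.8 from 21, 2 and 4 UMIs, with a fall of 0.97 ± 0.29 (log2, SE, edgeR adjusted p 0.00904), the 1 member of 5 called where 28.5% of genes were (15.8% higher and 12.7% lower). It was not called without run 2. Immediate early gene-high cells (at least 5 of Fos, Fosb, Egr1, Ier2, Jun, Junb, Dusp1 and Nr4a1) numbered 1, 6 and 377, so no test was made. In run 3 they had 2351 CPM of Fth1, 1584 of Ftl1, 113 of Slc40a1, 21.3 of Hmox1 and 126 of Slc11a1, against 2138, 1451, 128, 22.9 and 129 in the reference cells of that run.

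A few gates hold transcripts of cells that the sort was not meant to keep. Cells with at least 2 choroid plexus epithelial markers and at least 10 Ttr UMIs numbered 23, 26 and 3, with 3076, 3571 and 4887 CPM of Fth1 and 1397, 1920 and 1991 of Ftl1, and their Slc40a1 was 78.9 and 33.7 in runs 1 and 2 and had 0 UMIs in run 3. They still summed to between 362 and 12472 CPM of homeostatic microglial markers. Cells with at least 3 astrocyte markers (72, 31 and 11) had 2318, 3040 and 1614 CPM of Fth1 and 134, 108 and 159 of Slc40a1. T and NK marker cells numbered 5 in all. The 113, 64 and 130 cells that met more than 1 gate other than the reference gate had 4885, 6046 and 4836 CPM of Fth1 and 3291, 5332 and 3423 of Ftl1, and they carried MHC class II markers at 7672 to 25411 CPM.

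A list of 51 other genes of iron and haem handling was followed beside the members, of which 23 passed the filter in the main fit. In the border gate 6 of 23 rose and 2 fell, where 10.3% of all genes tested were higher and 6% lower. Cp, the ferroxidase ceruloplasmin that works beside ferroportin, was 132, 223 and 251 CPM there (76 UMIs) and 0.374, 0.133 and 0.447 in the reference gate (23 UMIs), and rose by 9.24 ± 0.63 on the log2 scale (edgeR adjusted p 2.43e-17). Cp passed the filter on low counts only through the border gate, where it is high. Its call and its place among the 6 are therefore not independent of that filter. Blvrb and Blvra, which encode biliverdin reductases, rose by 2.65 ± 0.17 (edgeR adjusted p 2.23e-19) and 1.49 ± 0.26 (adjusted p 1.40e-05). The level of Blvrb went from 78.1 ± 8.6 CPM in the reference gate to 526 ± 212 in the border gate (SD, n = 3). App, the amyloid precursor, which has been linked to iron export, rose by 1.48 ± 0.20 (adjusted p 2.79e-08). The remaining calls were smaller rises of Hfe (0.73) and Trf (0.48) and falls of the haemopexin receptor Lrp1 (0.81) and the iron-sulphur scaffold Iscu (0.87).

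In the lipid gate 3 of 23 listed genes rose and 2 fell, with a median of 0.02 against 0.01 for all genes. With 13.4% of all genes higher and 10.1% lower there, these counts are near the background. Alas1, the first enzyme of haem synthesis, rose by 1.19 ± 0.22 (log2, SE, edgeR adjusted p 2.32e-05), from 60.3 ± 1.7 to 140 ± 37 CPM. Slc25a37, the mitochondrial iron importer mitoferrin 1, fell by 1.54 ± 0.35 (adjusted p 6.87e-04), on 12 UMIs in the lipid gate. Lrp1 (0.59) and Abcg2 (0.73) also rose, and Hfe fell by 0.76. Lrp1 and Hfe passed in opposite directions in the border and lipid gates, which were set against the same reference cells. Cp had 0 UMIs in the lipid gate in every run.

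In the Ccl3/Ccl4 gate 2 of 23 listed genes at adjusted p under 0.05 were higher and 1 lower, against 2.88% and 1.02% of all genes. Alas1 was up by 1.17 ± 0.35 (log2, SE, edgeR adjusted p 0.0392) and Nfe2l2, a transcription factor of the oxidant response, by 0.98 ± 0.18 (adjusted p 1.23e-04), while the constitutive haem oxygenase Hmox2 fell by 1.34 ± 0.35 (adjusted p 0.0131) on 13 UMIs. The Emp3 gate had 0 higher and 1 lower (Hfe, by 0.35), and the interferon gate 1 higher (Hmox2, 0.52) and 0 lower. With Emp3-positive cells kept, 4 of 21 tested genes rose in the MHC class II gate, where 10.8% of all genes were higher, with Cp (6.34 ± 0.89, on 11 UMIs) and Blvrb (1.04 ± 0.26) changed by at least 1 on the log2 scale. Against the MHC class II gate, the border gate was higher in Cp by 2.82, in Blvrb by 1.52 and in Hfe by 1.14, and lower in none of the 21, where 2.7% of all genes were higher and 2.78% lower. Cycling cells had 2 of 21 higher and 4 lower, where 28.5% of all genes were called (15.8% higher and 12.7% lower), so the counts are near the background. The genes that fell were led by the proton-coupled folate and haem carrier Slc46a1, which fell by 2.81 on 4 UMIs.

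**Figure D5:**
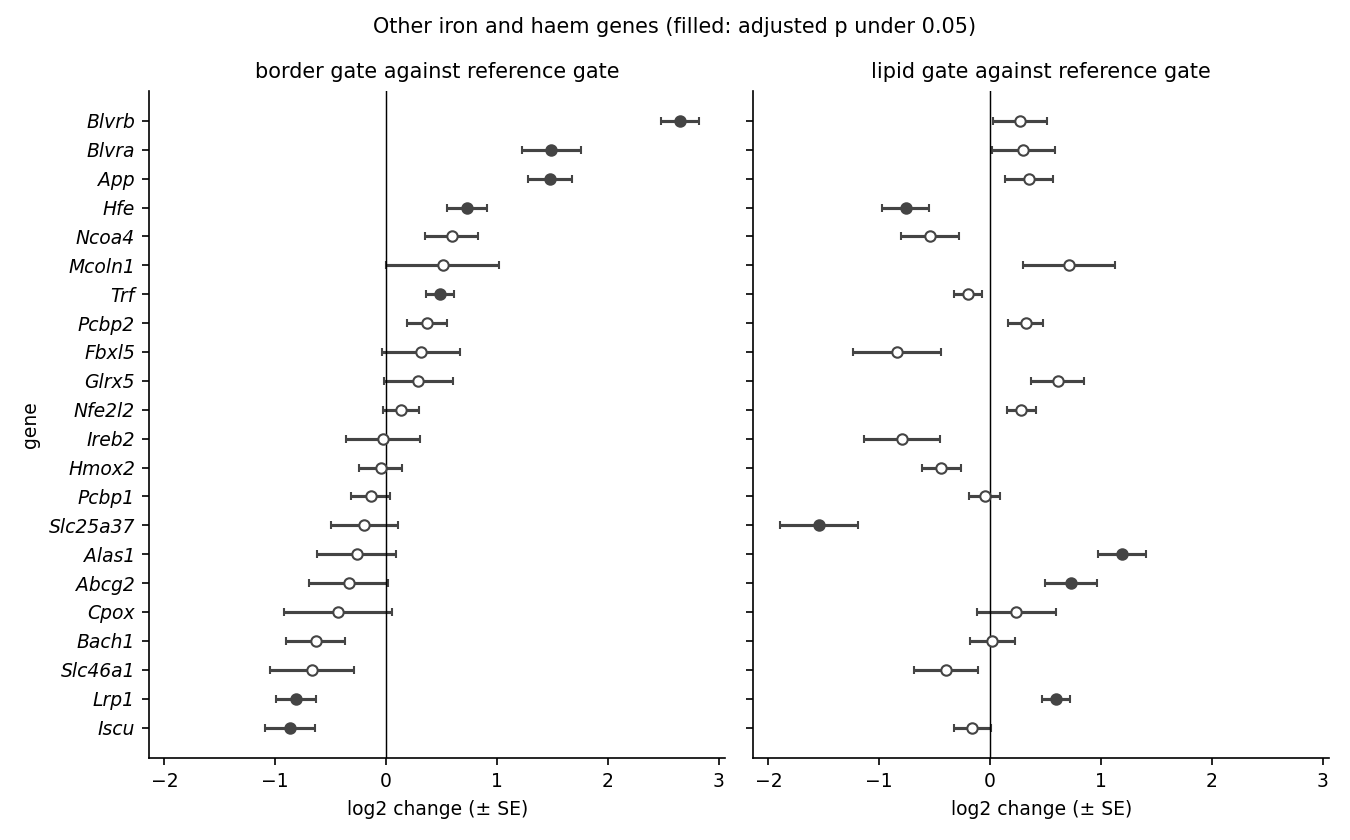
Change of 22 other iron and haem genes (y axis) against the reference gate in the border gate (left) and the lipid gate (right); the x axis is the log2 change with its standard error, and filled points have an edgeR adjusted p under 0.05. Cp, which had 23 UMIs in the reference gate, is not drawn; Blvrb is the highest in the border gate and Alas1 in the lipid gate.

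Levels were compared over the 18 sums of 6 gates in 3 runs by Pearson's r of log2(CPM + 1), centred within each run. The genes most like each member were sought among 6178 genes of at least 20 CPM on average that mark no gate. The 18 sums share libraries, and r is a description of differences between gates within runs. Nearest to Fth1 were the ribosomal protein gene Rpl41 (0.95), the proton-sensing receptor gene Gpr65 (0.95) and Ftl1 (0.93). Ftl1 lay nearest to Prdx1, a peroxiredoxin gene (0.96), Ybx1 (0.95) and mt-Atp6 (0.94), and Hmox1 to the lysosomal galactosylceramidase gene Galc (0.95), Ybx1 (0.92) and Scpep1 (0.92). Slc40a1 followed Pnisr (0.93), Ms4a6b (0.88) and Gbp7 (0.88), and Slc11a1 followed Ctnna1 (0.84), Lrpap1 (0.84) and Mesd (0.82). Between members r was 0.91 for Ftl1 and Hmox1, 0.80 for Fth1 and Hmox1, -0.0094 for Fth1 and Slc40a1, -0.27 for Ftl1 and Slc40a1 and -0.42 for Hmox1 and Slc40a1.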

How the data were processed

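The deposited files hold raw UMI counts per gene and cell for each run. Per the file headers the counting software was version 3.0.2 for run 1 and 3.1.0 for runs 2 and 3. Per the submitters' processing notes Cell Ranger, Seurat 4.0 and mm10 were used. The annotation was not given in the sources used here, and gene positions and UTRs come from GENCODE M21. UMIs were summed per run and gate and expressed as CPM. The border, lipid, Ccl3/Ccl4, interferon and Emp3 gates, which had at least 10 cells in every run, entered 1 joint fit with the reference gate in edgeR 4.0.16 (glmQLFit and glmQLFTest, TMM, filterByExpr, run as block, Benjamini-Hochberg over all genes tested, adjusted p 0.05). Gate markers were not tested, and the astrocyte, choroid and T/NK gates were only described. The run is a block because every gate of a run was taken from 1 library: deviations from the gate means correlated with those of the run's reference gate at 0.18 to 0.82. The script was tested on simulated data. Doublets were not removed by a caller. The 7 members, the markers and the list of iron genes were chosen with earlier results of these data known. Other genes were named from 20 CPM in the higher gate where they passed the test, changed by 1 or more on the log2 scale and went the same way in 3 runs, and other called genes of the list were added after their values were seen. Alternatives were no filter, DESeq2 1.42.0 size factors and Wald test, no block, runs left out, pairwise fits, stricter cell filters, 1 marker more, no Xist and Y-linked double-positive cells, and thinning. The values of 1 further gene of the list are not reported here.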

Additional observations from a re-analysis of the deposited data

How the results depend on the processing

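The members called in the border gate (3) and the lipid gate (5) were called under every alternative that gave a value, 12 and 11 of them. Other counts of members called moved. For the Emp3 gate (2) it was 0 without the run as replicate block, with thinning or with Emp3-positive cells kept in their other gates. That last change left the 636 cells of the Emp3 gate as they were and altered the other gates of the joint fit. The Emp3 count was 1 with no filter, the DESeq2 Wald test or 1 marker more, and 3 with the stricter cell filter. It was 4 without Xist and Y-linked double-positive cells or with at most 4% mitochondrial UMIs, 5 in the pairwise fit, and 0 to 1 with a run left out. For the interferon gate (0) it was 1 in the pairwise fit, the stricter filter and the 4% limit. For the Ccl3/Ccl4 gate (2) it was 0 without the replicate block or with the stricter marker, and 0 to 2 with a run left out. For lipid against Ccl3/Ccl4 (2) it was 0 without the block and 1 to 2 with a run left out. For cycling cells (1) it was 0 with thinning, 2 in the pairwise fit and 0 to 2 with a run left out. For border against MHC class II (1) it was 0 with the Wald test, without the block, in the pairwise fit, with thinning and with the 4% limit, 2 without double-positive cells, and 0 to 2 with a run left out. For the MHC class II gate (3) it was 2 with thinning, where Hmox1 gave no value and no call was lost. It was 4 with no filter, in the pairwise fit and with 1 marker more, where Slc40a1 was called lower as well. No called change reversed, and the cause of these moves was not tested. Genes called ranged from 485 to 1003 in the border gate, 549 to 1348 in the lipid gate and 13 to 512 in the Emp3 gate, where 849, 1225 and 114 were called. The Emp3 extremes came without the block and in the pairwise fit. The range was 89 to 202 in the interferon gate (136 at the main setting) and 78 to 248 in the Ccl3/Ccl4 gate (203). It was 15 to 107 for lipid against Ccl3/Ccl4 (65) and 316 to 1880 for cycling cells (1310). For the MHC class II gate it was 394 to 1045 (738), and for border against MHC class II 74 to 439 (252). Member counts at different settings are thus not directly comparable. Too few cells were left for the border, Ccl3/Ccl4 and cycling gates with the stricter filter, for the lipid and cycling gates with 1 marker more, for the lipid, Ccl3/Ccl4 and interferon gates with thinning, and for the border, lipid, Ccl3/Ccl4 and cycling gates with the 4% limit, so these were not run. The early-gene gate was not tested at all. No filter shifted the median gene by -0.16 (border) and -0.22 (Ccl3/Ccl4) on the log2 scale. The low counts of Tfrc, Slc11a2 and, in small gates, Hmox1 and Slc40a1 limit the precision for these genes. Calls were also lost for members with many UMIs, such as Fth1 in the Emp3 gate, in 5 of 14 alternatives.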
